A study of Mus musculus with 15 samples.

Results

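The type I interferon response genes Ifitm3, Oasl2, Ifit1, Ifit3, Stat2, Irf7, Isg15, Usp18 and Bst2 were followed across 15 libraries of mouse cerebellum. They are 9 of the 24421 genes in the count tables, were taken by gene symbol, and all 9 had enough counts to be tested. All mice were of the FVB strain, and 3 groups of 5 libraries were compared: wild type mice, mice with the Pcp2-ATXN1[82Q] transgene and mice with the Pcp2-ATXN1[82Q]V591A;S602D transgene. Both transgenes place human ATXN1 with 82 glutamines under the promoter of Pcp2, a Purkinje cell gene, so the transgene is made in one neuron type while the RNA is of whole dissected cerebellum. The V591A and S602D substitutions are known to weaken the binding of ATXN1 to the repressor CIC. The labels give no age and name no individual animals, and if libraries share an animal, the p-values reflect technical spread only. In RNA of a whole tissue, fewer or more cells of a type and less or more RNA per cell cannot be told apart.

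Type I interferons are secreted proteins that bind a receptor of IFNAR1 and IFNAR2 chains on nearly all cells. The receptor's kinases JAK1 and TYK2 phosphorylate STAT2, which joins IRF9 in the complex ISGF3. That complex binds the interferon-stimulated response element, ISRE, in the promoters of antiviral genes. In brain, microglia and other glia can respond to these cytokines, and a low constitutive response is known in many tissues.

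ISRE letters were searched in the RefSeq promoter windows (GRCm38.p6, 250 bases before to 50 after the start), since they are the element through which these genes are known to be read together. The letters GAAA, any 2 bases and GAAA, on either strand, were present in 6 of the 8 members with a window. These were Ifitm3, Ifit1, Ifit3, Stat2, Isg15 and Bst2. Of all 27018 genes with a window 3.99% held the letters, and of all 32841 windows 3.44% did. No match was found in the windows of Oasl2 and Irf7, and no window was given for Usp18. A match describes letters and does not show a bound site. The stretches that hold the matches are printed on the strand of each gene, 5′ to 3′, with the matched letters in capitals; TTTC reads as GAAA on the other strand. The Isg15 stretch is the whole 250 bases before the start (chr4:156200819-156201068, minus strand), and its 3 matches overlap in 1 run.
Isg15: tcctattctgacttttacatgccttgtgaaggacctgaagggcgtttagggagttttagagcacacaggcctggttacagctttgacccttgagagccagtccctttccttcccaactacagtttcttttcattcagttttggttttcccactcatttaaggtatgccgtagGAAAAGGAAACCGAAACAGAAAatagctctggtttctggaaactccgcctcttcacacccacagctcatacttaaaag
The Ifit1 (chr19:34640765-34640833, plus strand) and Ifit3 (chr19:34583353-34583436, plus strand) stretches each hold 2 matches, and the matched letters are the same in both genes.
Ifit1: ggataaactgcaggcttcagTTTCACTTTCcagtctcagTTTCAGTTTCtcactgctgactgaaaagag
Ifit3: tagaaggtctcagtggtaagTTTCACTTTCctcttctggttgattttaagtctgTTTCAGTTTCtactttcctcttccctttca
The Ifitm3 matches lie 2 to 28 bases after its start (chr7:141010716-141010742, minus strand), those of Bst2 overlap each other (chr8:71537567-71537622, minus strand), and Stat2 has 1 match (chr10:128270256-128270305, plus strand).
Ifitm3: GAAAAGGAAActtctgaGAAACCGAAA
Bst2: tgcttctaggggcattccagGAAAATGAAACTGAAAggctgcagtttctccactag
Stat2: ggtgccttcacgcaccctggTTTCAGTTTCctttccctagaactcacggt
The letters TTCNNNGAA, a pattern of the GAS element of type II interferon signalling, were found in the Ifitm3 and Bst2 windows and in 8.30% of all windows.

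**Figure D1:**
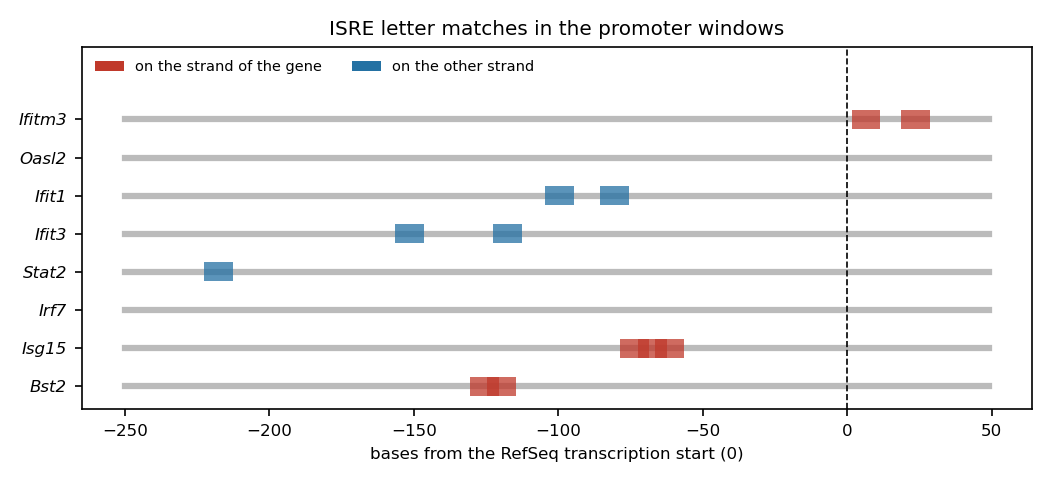
Positions of the ISRE letter matches (GAAA, any 2 bases, GAAA) in the promoter windows of the 8 members that have one, in bases from the RefSeq transcription start. Red matches read on the strand of the gene and blue ones on the other strand; all matches of Ifit1, Ifit3, Stat2, Isg15 and Bst2 lie before the start, both of Ifitm3 lie after it, and Oasl2 and Irf7 have none.

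Counts on genes ran from 36467948 to 42818401 per library. Ttr is a transcript of the choroid plexus, a tissue beside the cerebellum; it ranged from 4.26 to 4869 CPM (counts scaled to library size) and was under 100 CPM in 7 libraries, 3 of wild type, 2 of ATXN1[82Q] and 2 of ATXN1[82Q]V591A;S602D. Xist, the X-inactivation transcript, was at 1056 CPM or more in 2 libraries of each genotype and at most 0.878 CPM in the others, so each genotype had libraries of both sexes. Summed markers of brainstem neurons reached 64.9 and 79.1 CPM in replicates 2 and 5 of ATXN1[82Q], against at most 42.7 CPM in the others. Purkinje cell markers summed to 8608 to 9817 CPM in wild type, 3043 to 3719 CPM in ATXN1[82Q] and 6028 to 8362 CPM in ATXN1[82Q]V591A;S602D, so cerebellar cortex was present in all.

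7 of the 9 genes were higher in ATXN1[82Q] than in wild type cerebellum, by 1.55-fold to 1.92-fold, at an adjusted p under 0.05 (edgeR quasi-likelihood F-test, Benjamini-Hochberg over 15843 genes). Of all genes tested 16.6% were called higher by that rule. Bst2 and Stat2 were the genes not called. In 6 of the 9, every ATXN1[82Q] library was above every wild type library, against 9.36% of all genes. The median log2 fold change was 0.68 over the 9 genes and 0.01 over all genes. The 9 genes were chosen with earlier results of these data known. Setting them against all genes, here and below, describes them and is not a test. Between ATXN1[82Q]V591A;S602D and wild type 0 of 9 were called, with 0 at an unadjusted p under 0.05 and 0 by DESeq2, where 0.208% of all genes were called higher and 1.2% lower.

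**Figure D2:**
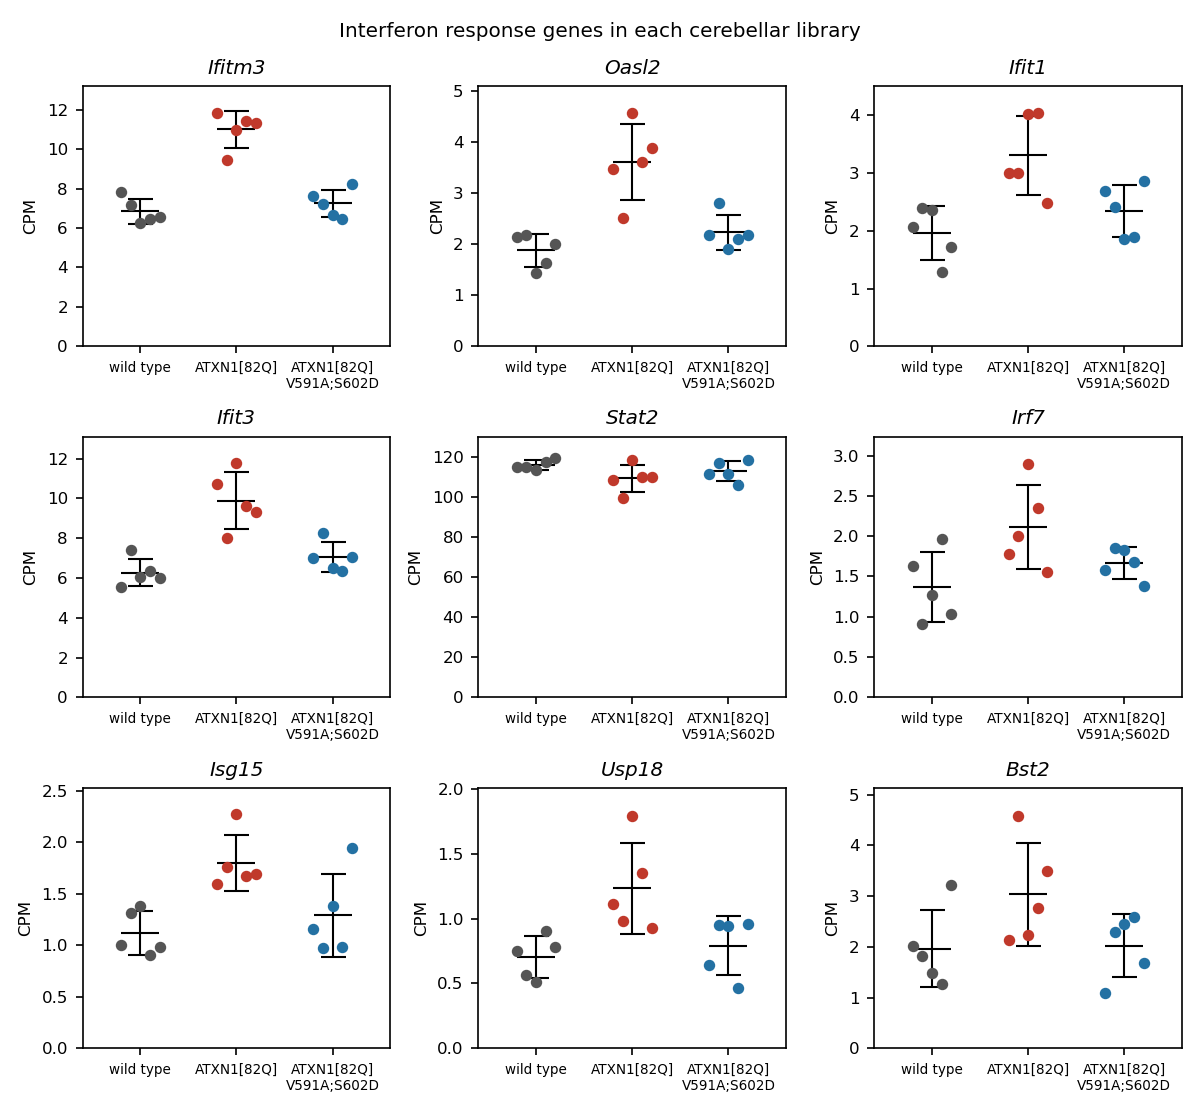
CPM of each gene in each of the 15 libraries (points), with the mean and SD of 5 libraries per genotype (bars); each panel has its own axis from 0. Ifitm3 in ATXN1[82Q] lies between 9.44 and 11.8 CPM, above all libraries of the other genotypes, whereas Stat2 overlaps between genotypes.

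Among the antiviral effectors, Ifitm3 encodes a membrane protein of endosomes that blocks the fusion of entering viruses (chromosome 7, 141009586 to 141010770, minus strand, GRCm38). Its levels in wild type replicates 1 to 5 were 7.81, 7.17, 6.26, 6.45 and 6.55 CPM. In ATXN1[82Q] they were 11.8, 9.44, 10.97, 11.4 and 11.3 CPM, and in ATXN1[82Q]V591A;S602D 7.62, 7.24, 6.68, 6.48 and 8.21 CPM. The ATXN1[82Q] libraries stood above all 10 others. The log2 fold change was 0.68 (SE 0.0849, adjusted p = 1.10e-05) against wild type and 0.60 (SE 0.0845, adjusted p = 8.84e-05) against ATXN1[82Q]V591A;S602D.

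Oasl2 encodes a protein related to the 2′-5′-oligoadenylate synthetases, with ubiquitin-like domains (chromosome 5, 114896936 to 114912234, plus strand). Wild type libraries gave 2.14, 2.18, 1.44, 1.64 and 2.01 CPM and ATXN1[82Q] libraries 3.48, 2.52, 4.57, 3.60 and 3.88 CPM. With ATXN1[82Q]V591A;S602D the values were 2.18, 2.80, 1.91, 2.10 and 2.18 CPM. Its log2 fold change of 0.94 in ATXN1[82Q] against wild type (SE 0.160, adjusted p = 0.000271) was the largest of the 9 genes. Against ATXN1[82Q]V591A;S602D it was 0.69 (SE 0.157, adjusted p = 0.00391), where replicate 2 of each of these genotypes made the groups overlap.

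Ifit1 and Ifit3, a pair of tetratricopeptide-repeat proteins that act on viral RNA, are near each other on chromosome 19 (34640871 to 34650009 and 34583531 to 34588731, both plus strand). Ifit1 was at 2.06, 2.39, 2.36, 1.28 and 1.71 CPM in wild type and at 3.00, 3.01, 4.02, 4.04 and 2.48 CPM in ATXN1[82Q]. It read 2.70, 2.41, 1.85, 1.89 and 2.86 CPM in ATXN1[82Q]V591A;S602D, between and overlapping both. Ifit1 rose by a log2 fold change of 0.76 (SE 0.185, adjusted p = 0.00502) in ATXN1[82Q] against wild type. Against ATXN1[82Q]V591A;S602D its difference was 0.50 (95% interval 0.11 to 0.88, adjusted p = 0.0513), just outside the threshold.

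For Ifit3 the wild type libraries gave 5.55, 7.42, 6.04, 6.35 and 6.02 CPM. ATXN1[82Q] libraries gave 10.7, 8.02, 11.8, 9.60 and 9.29 CPM, and those with ATXN1[82Q]V591A;S602D 7.0, 8.27, 6.5, 6.38 and 7.07 CPM. All ATXN1[82Q] libraries were above wild type, and 1 of them fell below the highest ATXN1[82Q]V591A;S602D library. Ifit3 rose against wild type (log2 fold change 0.66, SE 0.105, adjusted p = 0.000161) and against ATXN1[82Q]V591A;S602D (0.49, SE 0.105, adjusted p = 0.00259). Its near copy Ifit3b shares 51.2% of the 50-base words of Ifit3, so the split of reads between them is uncertain; Ifit3b was itself called higher in both comparisons. Ifitm3 shares 10.02% of such words with other genes and Ifit1 7.14%, nearly all with Ifit1bl2.

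Isg15 encodes a ubiquitin-like protein that is attached to other proteins during the response (chromosome 4, 156199424 to 156200818, minus strand). Its promoter holds the 3 overlapping matches printed above. It was at 1.00, 1.32, 1.38, 0.907 and 0.982 CPM in wild type and at 1.59, 1.76, 2.27, 1.67 and 1.69 CPM in ATXN1[82Q]. The ATXN1[82Q]V591A;S602D libraries gave 1.16, 0.9753, 1.38, 0.985 and 1.95 CPM, where replicate 5 exceeded 4 of the 5 ATXN1[82Q] libraries. Isg15 rose against wild type (log2 fold change 0.69, SE 0.195, adjusted p = 0.0127), and the difference from ATXN1[82Q]V591A;S602D was 0.48 (95% interval 0.07 to 0.88, adjusted p = 0.0722).

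Usp18, the protease that removes ISG15 and also restrains signalling at IFNAR2 (chromosome 6, 121245906 to 121270917, plus strand), had the lowest level of the 9, with 18 to 75 reads per library. Wild type libraries were at 0.754, 0.564, 0.515, 0.907 and 0.780 CPM and ATXN1[82Q] libraries at 1.12, 0.979, 1.79, 1.35 and 0.925 CPM. With ATXN1[82Q]V591A;S602D it was at 0.643, 0.951, 0.940, 0.467 and 0.961 CPM. The lowest ATXN1[82Q] library was just above the highest wild type library. A long noncoding RNA gene on the opposite strand, Gm44148, overlaps 4.44% of Usp18 exon length, and reads there cannot be told apart without strand. Usp18 rose by a log2 fold change of 0.80 (SE 0.240, adjusted p = 0.0169) against wild type; without replicate 3 of ATXN1[82Q] the adjusted p was 0.0532, and without replicate 3 of wild type it was 0.0507. Against ATXN1[82Q]V591A;S602D the difference was 0.64 (95% interval 0.14 to 1.14, adjusted p = 0.0540).

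Bst2, or tetherin, holds budding viruses at the cell surface (chromosome 8, 71534255 to 71537456, minus strand). It varied widely within genotypes: 2.01, 1.83, 1.49, 1.26 and 3.22 CPM in wild type, 2.12, 4.57, 2.22, 2.76 and 3.50 CPM in ATXN1[82Q], and 1.09, 2.29, 2.45, 2.59 and 1.69 CPM in ATXN1[82Q]V591A;S602D. Within each genotype, every library with Ttr above 100 CPM had more Bst2 than every library with Ttr below it. In wild type the libraries with high Ttr gave 2.01 to 3.22 CPM and the others 1.26 to 1.83 CPM. In ATXN1[82Q] the ranges were 2.76 to 4.57 and 2.12 to 2.22 CPM, and in ATXN1[82Q]V591A;S602D 2.29 to 2.59 and 1.09 to 1.69 CPM. No other member had that order in all 3 genotypes, and the part of choroid plexus tissue in the level of Bst2 was not tested. Bst2 differed between ATXN1[82Q] and wild type by a log2 fold change of 0.63 (95% interval 0.05 to 1.21, adjusted p = 0.0906). With log2 Ttr as a covariate, an alternative chosen after seeing the data, this was 0.42 (SE 0.165, adjusted p = 0.0660). The same fit gave 0.58 against ATXN1[82Q]V591A;S602D (SE 0.160, adjusted p = 0.0102), where the fit without Ttr gave 0.59 (95% interval 0.01 to 1.16, adjusted p = 0.117). The range of Bst2 over the libraries left out one by one was 0.43 to 0.88 against wild type, and it was called without wild type replicate 5 (adjusted p = 0.0159). Without replicates 2 and 5 of ATXN1[82Q] it was 0.27 against wild type (adjusted p = 0.543).

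Of the pair of transcription regulators, Irf7 is induced by interferon and in turn drives interferon alpha genes (chromosome 7, 141262706 to 141266481, minus strand). It read 1.63, 0.914, 1.27, 1.97 and 1.03 CPM in wild type, 1.78, 2.01, 2.89, 2.35 and 1.56 CPM in ATXN1[82Q], and 1.58, 1.85, 1.83, 1.68 and 1.38 CPM in ATXN1[82Q]V591A;S602D. The groups overlapped. Its log2 fold change of 0.63 against wild type (SE 0.205, adjusted p = 0.0265) passed the threshold. The call was lost without any one of replicates 3 and 4 of ATXN1[82Q] (adjusted p = 0.0789 and 0.0589) or replicates 2, 3 and 5 of wild type (0.0704, 0.0600 and 0.0582). Against ATXN1[82Q]V591A;S602D the difference was 0.34 (95% interval -0.08 to 0.77, adjusted p = 0.213). Irf7 exons share 45 bases with Phrf1 on the opposite strand, 1.19% of their length.

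Stat2, the ISGF3 subunit (chromosome 10, 128270559 to 128292849, plus strand), was the most abundant of the 9 and did not follow the others between genotypes. It was at 115, 115, 114, 117 and 119 CPM in wild type and at 109, 99.5, 119, 110.3 and 110.3 CPM in ATXN1[82Q]. Libraries of ATXN1[82Q]V591A;S602D were at 112, 117, 112, 106 and 119 CPM. The log2 difference between ATXN1[82Q] and wild type was -0.08 (SE 0.0399, adjusted p = 0.116), and without replicate 3 of ATXN1[82Q] it was -0.12 and was called lower (adjusted p = 0.0229). Per kilobase of exon Stat2 stood at 19.6 ± 0.394 CPM (SD, n = 5) in wild type, above Ifitm3 at 10.1 ± 0.943 CPM and Ifit3 at 3.60 ± 0.400 CPM. Bst2 (2.17 ± 0.844 CPM) and Isg15 (1.48 ± 0.284 CPM) came next and overlapped within 1 SD, then Ifit1 (0.738 ± 0.176 CPM). Irf7 (0.361 ± 0.115 CPM), Oasl2 (0.295 ± 0.0513 CPM) and Usp18 (0.252 ± 0.0580 CPM) were the lowest and overlapped within 1 SD, all as levels per kilobase.

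**Figure D3:**
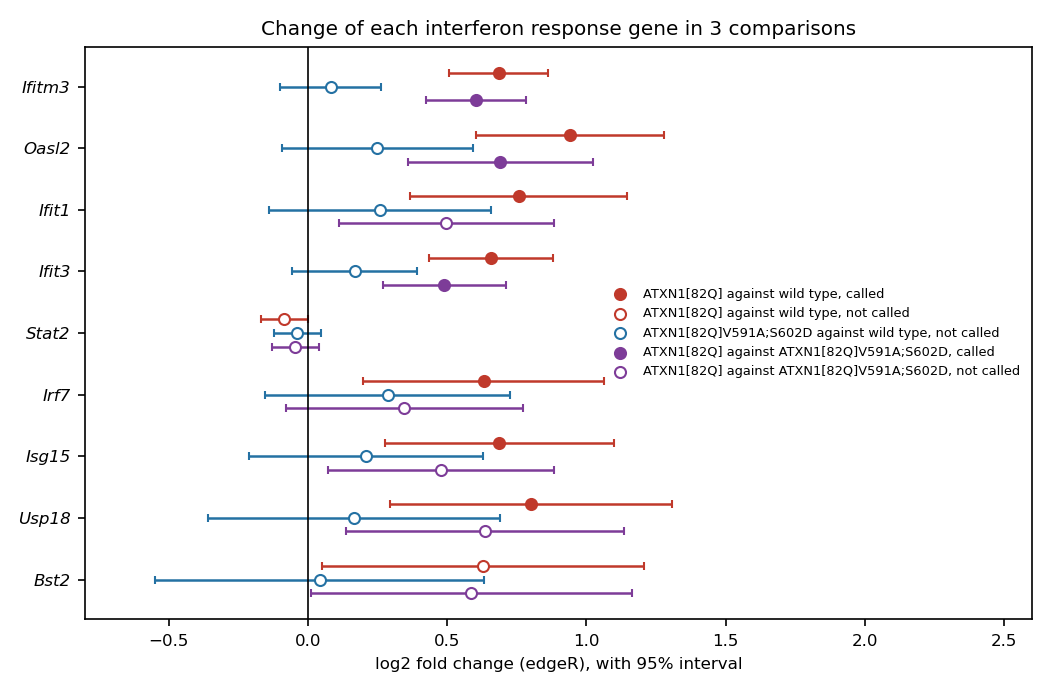
Log2 fold change of each of the 9 genes in the 3 comparisons (edgeR), with 95% intervals; filled points had an adjusted p under 0.05. In ATXN1[82Q] against wild type 7 points are filled, in ATXN1[82Q] against ATXN1[82Q]V591A;S602D 3 are, and in ATXN1[82Q]V591A;S602D against wild type none is.

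The direct comparison sets the transgenes against each other. The labels do not give transgene levels, so an effect of the substitutions cannot be told apart from other differences between the transgenic mice. 3 of the 9 genes, Oasl2, Ifitm3 and Ifit3, were higher in ATXN1[82Q], where 13.5% of all genes were called higher, and 7 of 9 had an unadjusted p under 0.05. Only Ifitm3 had no overlap between the groups (8.28% of all genes were non-overlapping and higher). A fit with replicate number as a block also called 3 of 9. DESeq2 called 5, and the fit with log2 Ttr, added after seeing the data, called 7. The count ran from 3 to 5 as single libraries were left out. It was 5 without replicate 5 of ATXN1[82Q] and 5 without replicate 5 of ATXN1[82Q]V591A;S602D.

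Set against wild type, ATXN1[82Q]V591A;S602D had 8 of the 9 genes at a log2 difference above 0, with a median of 0.17 over the 9 and 0.01 over all genes. Ifitm3 differed by 0.08 (95% interval -0.10 to 0.26) and Ifit3 by 0.17 (-0.06 to 0.39), so both upper bounds lie below the change of the same gene in ATXN1[82Q] against wild type. For Oasl2 (0.25, interval -0.10 to 0.59), Ifit1 (0.26, -0.14 to 0.66), Isg15 (0.21, -0.21 to 0.63) and Usp18 (0.17, -0.36 to 0.69) this was also so. The changes in ATXN1[82Q] have errors of their own, so this order is not a test of a difference between the transgenes. In the direct comparison above, Ifit1, Isg15 and Usp18 were not called. For Irf7 (0.29, interval -0.15 to 0.72) and Bst2 (0.04, interval -0.55 to 0.63) the intervals reach changes as large as in ATXN1[82Q]. A miss of the threshold does not show that levels were alike. Both comparisons with wild type share the same 5 control libraries.

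The libraries of a genotype were not alike across members. Replicate 3 of ATXN1[82Q] had the highest level of its group in 6 genes (Oasl2, Ifit3, Stat2, Irf7, Isg15 and Usp18) and of all 15 libraries in 5. Replicate 2 of ATXN1[82Q] was lowest of its group in 4 (Ifitm3, Oasl2, Ifit3 and Stat2). Replicate 5 of ATXN1[82Q]V591A;S602D was highest in 5 genes. Over the 15 libraries, Oasl2 was most like the mean of the other 8 (Pearson r = 0.90 for log2 CPM), then Ifit3 (0.88), Ifitm3 (0.87) and Usp18 (0.84), while Bst2 (0.26) and Stat2 (-0.24) were least. After the genotype means were subtracted Stat2 had the highest r (0.82) and Bst2 the lowest (-0.45). The r of Oasl2 (0.64), Usp18 (0.63), Ifit3 (0.56), Ifitm3 (0.45), Ifit1 (0.39), Isg15 (0.23) and Irf7 (-0.01) was then lower than before the subtraction. These values describe libraries that share genotype and depth.

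The 8 genes outside the list whose log2 CPM was most like the mean of the 9 over the 15 libraries were Pttg1ip, Abca1, Cyba, Nrbp2, Grn, Fmod, Slc13a3 and Fgfbp1, with r from 0.913 to 0.926. Cyba encodes a subunit of the phagocyte NADPH oxidase, Grn the lysosomal protein progranulin and Abca1 a cholesterol exporter. With genotype means subtracted they were Adck5, Stard8, Fbxl12, Per3, Nup88, Ssrp1, Chst10 and Cdc25b, with r from 0.796 to 0.854. None of the 16 is in the interferon pathway lists, and these are descriptions over 15 libraries and 13988 genes.

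The other genes of the pathway were given by 7 lists with 96 genes, of which 81 were tested. These lists were also chosen with earlier results known, so the shares of all genes are given as description. In ATXN1[82Q] against wild type 44 were higher and 1 was lower, with a median log2 fold change of 0.39, where 16.6% of all genes were called higher and 14.9% lower. For ATXN1[82Q]V591A;S602D against wild type edgeR and DESeq2 each called 0, and 1 gene upward and 1 downward had an unadjusted p under 0.05. ATXN1[82Q] against ATXN1[82Q]V591A;S602D gave 32 higher and 1 lower, beside 13.5% and 14.6% of all genes. With libraries of Ttr under 100 CPM alone, 26 were called against wild type and 9 against ATXN1[82Q]V591A;S602D.

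**Figure D4:**
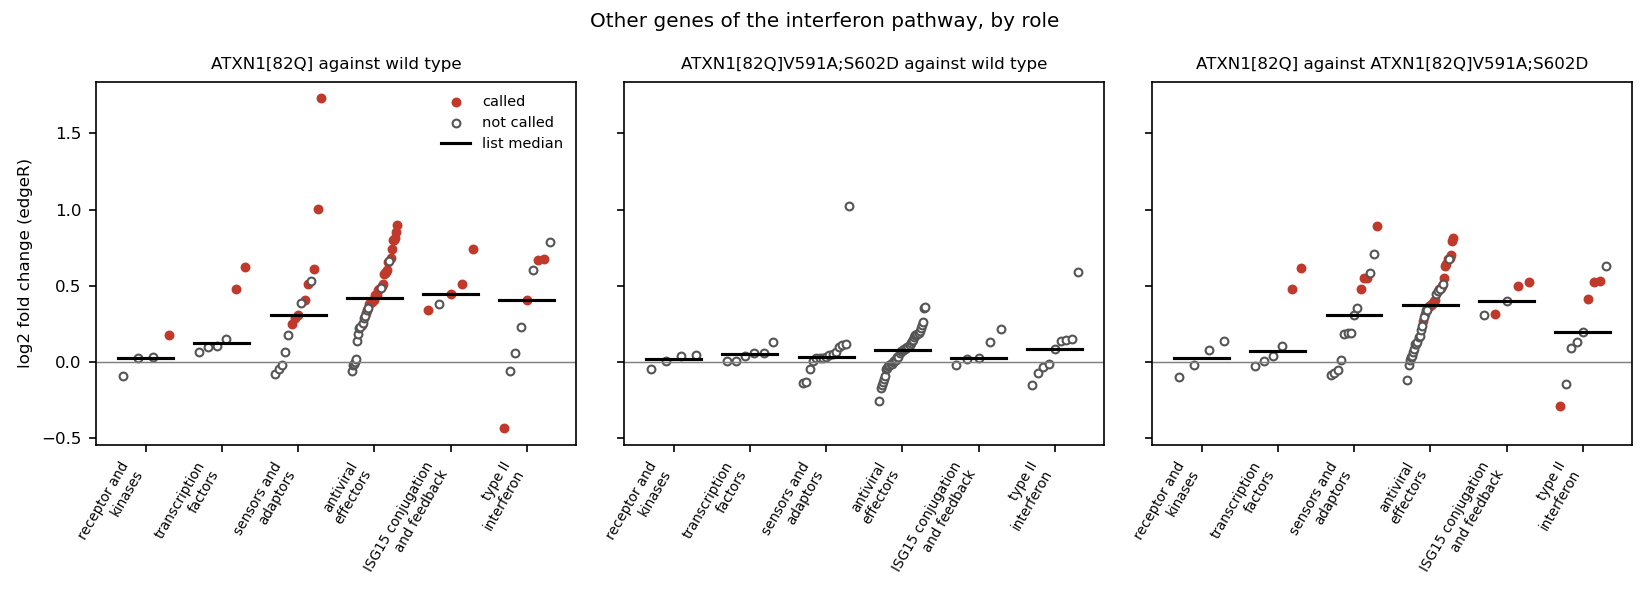
Log2 fold changes of the 81 tested pathway genes outside the 9, by role, in the 3 comparisons; filled points had an adjusted p under 0.05 and lines are list medians. Most filled points in ATXN1[82Q] are among the sensors and the antiviral effectors, the longest lists with 15 and 42 tested genes. The list of ISG15 conjugation and feedback has 4 of 5 filled against wild type. None is filled in ATXN1[82Q]V591A;S602D against wild type.

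The 8 type I interferon genes in the lists were at or near 0. Ifnb1 had 1 read in wild type and 0 in both transgenics, and Ifnab had 4 reads in wild type, 3 in ATXN1[82Q] and 1 in ATXN1[82Q]V591A;S602D. Ifna1, Ifna2, Ifna4, Ifna5, Ifne and Ifnk had 0 reads in all groups, which allows up to 0.0150 to 0.0152 CPM per group (3 counts, counting error only). The type II interferon Ifng also had 0 reads. None of these 9 genes had more than 3 reads in a transgenic group, and reads that aligned more than once were not counted.

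Of the receptor chains and kinases 1 of 4 rose in ATXN1[82Q] against wild type, where 16.6% of all genes did, and the list median was 0.03. The gene was Ifnar2 (log2 fold change 0.18, adjusted p = 0.0273; 0.0825 without wild type replicate 3), whose call was lost in 8 of 19 alternatives, and Ifnar1 stood at 0.03 (adjusted p = 0.513). Irf9 (0.15, adjusted p = 0.331), a partner of Stat2 in ISGF3, was not called. 2 of 6 transcription factors rose: Irf1 (0.48, adjusted p = 0.00292) and Irf5 (0.62, adjusted p = 0.00365), which acts downstream of Toll-like receptors in myeloid cells.

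8 of 15 sensors and adaptors rose and none fell, where 16.6% of all genes were called higher and 14.9% lower. Zbp1, a sensor of Z-form nucleic acid, had the largest log2 fold change at 1.73 (adjusted p = 0.0125), on 6 to 22 reads per ATXN1[82Q] library. Tlr7, the endosomal receptor of single-stranded RNA, rose by 1.00 (adjusted p = 0.000177), Ddx58, or RIG-I, by 0.61 (adjusted p = 0.000196), Ifih1, or MDA5, by 0.51 (adjusted p = 0.00130) and Tmem173, or STING, by 0.41 (adjusted p = 0.00730). Of these, Tlr7, Ddx58, Ifih1 and Tmem173 were also called against ATXN1[82Q]V591A;S602D (0.89, 0.55, 0.48 and 0.55).

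Among 42 tested effectors 26 rose and 0 fell, beside 16.6% of all genes called higher and 14.9% lower. Lgals3bp, a secreted glycoprotein (0.90, adjusted p = 0.00179), Slfn2 (0.80, adjusted p = 0.00514), Oas1a, a 2′-5′-oligoadenylate synthetase (0.80, adjusted p = 0.0145) and Epsti1 (0.82, adjusted p = 0.0438) were among the largest changes. The call of Epsti1 was lost in 14 of 19 alternatives. Against ATXN1[82Q]V591A;S602D 20 rose, where 13.5% of all genes did, with Rtp4 (0.68, adjusted p = 0.00602) and Slfn8 (0.80, adjusted p = 0.0277) among the largest. Of 37 effectors with a window 18 held the ISRE letters, against 3.99% of all 27018 genes with a window.

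The enzymes that attach ISG15 rose with it in ATXN1[82Q]: the E1 Uba7 (0.51, adjusted p = 0.0172), the E2 Ube2l6 (0.34, adjusted p = 0.0343; 0.105 without ATXN1[82Q] replicate 1) and the ligase Herc6 (0.45, adjusted p = 0.000436), and so did the feedback inhibitor Socs3 (0.74, adjusted p = 0.00525). These were 4 of the 5 genes of their list, where 16.6% of all genes were called higher and 14.9% lower. Of 9 tested type II interferon genes Gbp2 (0.67), Igtp (0.67) and Irgm1 (0.40), all guanosine triphosphatases of cell defence, rose, and the receptor chain Ifngr2 fell by 0.44 (adjusted p = 5.26e-05).

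Markers of several other cell types differed between the same groups. Of all genes 16.6% were called higher and 14.9% lower in ATXN1[82Q] against wild type. Against ATXN1[82Q]V591A;S602D 13.5% were called higher. The 17 microglial markers summed to 209 to 244 CPM in wild type, 388.05 to 434 CPM in ATXN1[82Q] and 223 to 263 CPM in ATXN1[82Q]V591A;S602D, and 17 of 17 were higher in ATXN1[82Q] against either group (median log2 fold change 0.90 against wild type). Meningeal markers summed to 204 to 437, 465 to 656 and 224 to 419 CPM, with 7 of 7 higher in ATXN1[82Q] against wild type. Leukocyte markers summed to 8.09 to 9.47, 13.6 to 18.4 and 8.53 to 10.6 CPM. Only 5 of the 13 had enough counts to be tested, and 3 were higher against wild type (Mrc1, Ptprc and Cd79a). The T cell genes Cd3d and Cd8a were at 0 in all ATXN1[82Q] libraries. Endothelial and mural markers summed to 344 to 386.7, 418 to 456 and 361 to 398.8 CPM; 3 of 15 were higher, a share near the 16.6% of all genes, with a median log2 fold change of 0.07. Oligodendrocyte markers summed to 4855 to 7178, 7097 to 9000 and 5818 to 6470 CPM, with 6 of 8 higher in ATXN1[82Q] against wild type and 8 of 8 against ATXN1[82Q]V591A;S602D. Of 10 astrocyte and Bergmann glia markers 4 were higher (Gfap, Aqp4, Aldh1l1 and Slc1a2) and 2 lower (Slc1a3 and Hopx) against wild type. The share called lower was near the 14.9% of all genes. Granule cell markers summed to 6239 to 7129, 4991 to 5339 and 6112 to 6755 CPM, with 7 of 8 lower against wild type. The part of these cells in the levels of the interferon response genes was not tested.

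**Figure D5:**
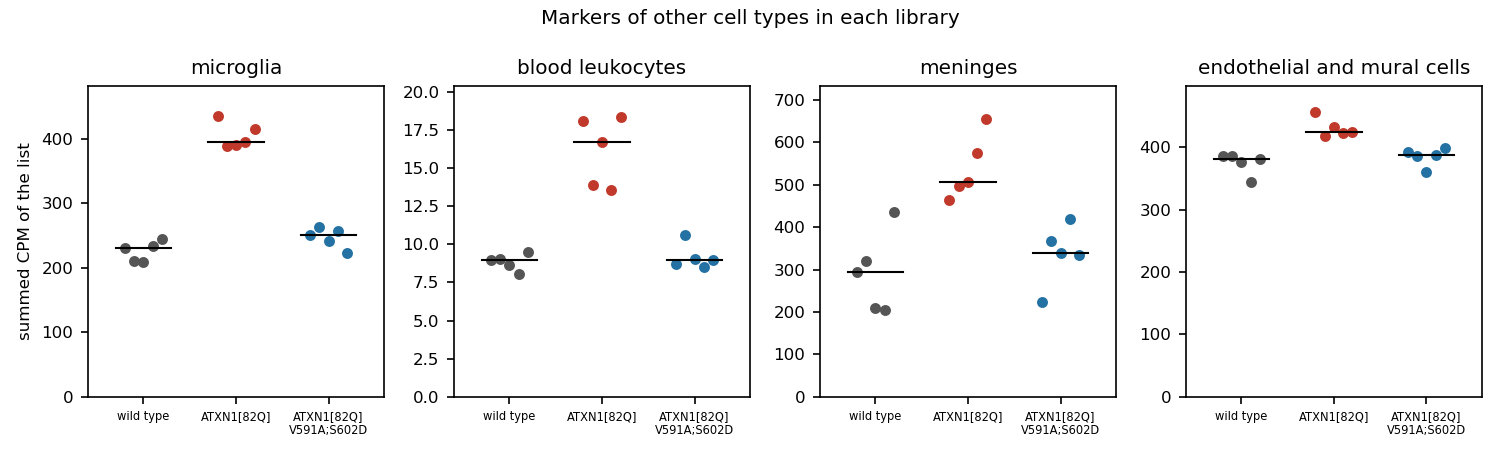
Summed CPM of the markers of 4 other cell types in each library (points) with the median of each genotype (line); each axis starts at 0. The ATXN1[82Q] libraries sit above all other libraries for each of the 4 lists, at 388.05 to 434 CPM for microglia. Only 3 of 15 endothelial and mural markers were called higher against wild type. The sums of oligodendrocyte, astrocyte and choroid plexus markers, not drawn, overlapped between ATXN1[82Q] and wild type.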

How the data were processed

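RNA in 15 cerebellar libraries was counted by gene. Per the submitters' processing notes, reads were aligned with STAR 2.5.3a to mm10 and counted with HTSeq, and DESeq2 is named. The counting mode, strand setting and annotation release were not given in the sources used here. Per the labels' protocols, 10 ng of total RNA was amplified with poly(A) and random priming. The deposited count values are raw whole-number counts per gene, with 16.8% to 18.2% of reads outside genes, 1.18% to 1.25% ambiguous and 12.8% to 14.6% aligned more than once, which stayed out of library sizes.

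Genes were tested with edgeR 4.0.16 (R 4.3.3): TMM scaling, filterByExpr with a minimum count of 10, all 15 libraries in 1 quasi-likelihood fit, 3 comparisons and Benjamini-Hochberg adjustment over 15843 genes, threshold 0.05. CPM were TMM-scaled, and log2 CPM used a prior count of 2. Intervals are 95%. Replicates of a genotype all differed beyond sampling noise (5.7 to 40.6 chi-square per degree of freedom, 30 pairs). Gene positions came from GENCODE M21 and promoter windows from RefSeq.

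On simulated data for ATXN1[82Q] against wild type with 15843 genes, 79 of 100 genes changed 1.5-fold and 93 of 100 changed 2-fold were called. There were 9 false calls of 181. The 95% intervals held the true change for 89% of the genes changed 1.5-fold and 95% of those changed 2-fold. Changed genes rose and fell equally often and left out those of lowest level. In the data far more genes were called (4993), so these shares need not hold there. Reads were amplified without molecular identifiers, so they are not separate molecules.

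The members and gene lists were chosen with earlier results of these data known. Named genes were the 9 members; Irf9, Ifnar1, Ifnar2 and Ifnb1; of each other pathway list and comparison the called genes of largest change, up to 5; and the 8 genes most like the members' mean. A few genes that meet these criteria are not reported here. Ttr, Xist, Phrf1, Ifit3b, Ifit1bl2, Gm44148 and marker genes were named beside the results they touch. Alternatives were RLE scaling, DESeq2 1.42.0, no count filter, only the genotypes compared, each library left out, a replicate block, libraries of low Ttr alone and ATXN1[82Q] without replicates 2 and 5. Ttr and Xist as covariates were added after seeing the data.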

Additional observations from a re-analysis of the deposited data

Results flagged for a closer look

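One value stood apart within its group: Isg15 in replicate 3 of ATXN1[82Q], at 2.27 CPM, was far above the other 4 libraries (1.59 to 1.76 CPM). The gap to the nearest library exceeded Dixon's 95% limit of 0.71 of the range for 5 samples. Of 39 groups checked 1 exceeded it, and chance flags about 1 in 20. The Isg15 call against wild type held without that library, with the adjusted p over the libraries left out one by one at 0.0124 to 0.0369.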

How the results depend on the processing

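In ATXN1[82Q] against wild type, 159 of 171 values of the 9 genes over 19 alternatives kept direction and side of the threshold, 10 lost their call and 2 gained one (Bst2 and Stat2, given above). The lost calls were those of Irf7 and Usp18 given above, Irf7 with only the genotypes compared (adjusted p = 0.0540), and Irf7 and Isg15 with the 7 libraries of low Ttr (0.115 and 0.118). The number of members called was 5 to 7 in all. In ATXN1[82Q] against ATXN1[82Q]V591A;S602D, 15 calls were gained and none lost: 5 members were called with DESeq2, 5 without replicates 2 and 5 of ATXN1[82Q], 7 with log2 Ttr as a covariate, and 3 to 5 as single libraries were left out. In ATXN1[82Q]V591A;S602D against wild type no member was called in any of the 19 alternatives, and only Bst2 changed sign among the members: -0.15 with low Ttr alone, -0.17 with the Ttr covariate, and a range of -0.083 to 0.295 as single libraries were left out, negative without wild type replicate 3 or 4 or replicate 2, 3 or 4 of the transgene. Irf9 there ranged from -0.064 (without replicate 5 of the transgene) to 0.107.

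Genes called over the whole table fell from 4993 to 3234 against wild type and from 4454 to 1512 against ATXN1[82Q]V591A;S602D with low Ttr alone, a fit of 7 libraries, and the pathway genes called fell to 26 and 9. In ATXN1[82Q]V591A;S602D against wild type 223 genes were called, 429 with DESeq2, and 136 to 307 as single libraries were left out. The causes were not tested. Ube2l6 lost its call in 7 of 19 alternatives and Ifnar2 in 8. Against ATXN1[82Q]V591A;S602D, Epsti1 lost its call in 13, Socs3 in 8, Slfn8 in 6 and Uba7 in 4. Zbp1 had no value with low Ttr alone or with only the genotypes compared.

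The replicate numbers gave no pairing: deviations correlated above 0.1 in 4 of 15 pairs with the same number (median -0.109). With the replicate block, 7, 0 and 3 members and 4681, 174 and 4152 genes were called in the 3 comparisons. Usp18, with 18 to 75 reads per library, and Bst2, which varied between libraries, had the widest intervals of the 9 genes.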
